A study of Mus musculus with 48 samples.

Results

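The genes described here copy DNA in S phase or run chromosome segregation in mitosis, together with 4 regulators of the preceding G1 phase. They were chosen by name from a written list of 48 symbols, and 44 of these were rows of a table of 39637 mouse genes. Of the 44, 20 act in S phase, 20 in mitosis and 4 in G1. Cdk2, Mcm4, Kif11 and Kif20a are not analysed here. Their transcript counts came from 48 whole tumours, each grown under the skin of a separate female balb/c mouse aged 8 to 9 weeks and removed before any treatment. The AB1 tumours came from an injected mouse mesothelioma line and were removed on day 8, with 12 from mice later classed as responders and 12 from mice later classed as non-responders. The Renca tumours came from an injected mouse kidney cancer line and were removed on day 10, again with 12 responders and 12 non-responders. All 48 mice belonged to the arm given anti-CTLA4 plus anti-PDL-1, antibodies that block immune checkpoints, so no group was free of later treatment. The response comparisons ask which genes already differed, before the antibodies, between mice with either outcome.

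A cell enters S phase when cyclin D with Cdk4 or Cdk6, and then cyclin E with Cdk2, release E2F transcription factors from the retinoblastoma proteins, and E2F proteins then switch on the genes for origin licensing, the replicative helicase and nucleotide synthesis. Genes for mitosis come on later, under a complex of MuvB proteins, B-Myb and Foxm1 that reads a short promoter element named CHR, and their products build the spindle, time anaphase and destroy the mitotic cyclins. The CDK inhibitors made from Cdkn1a and Cdkn2a hold cells in G1. Because whole tumours hold cancer cells, leukocytes and stroma together, fewer cells of a type and less RNA per cell cannot be told apart in any value below.

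Library totals ran from 16441426 to 27838494 counts, with a median of 22853390. Levels are given as CPM, counts per 1000000 counts of the library, scaled for composition across all 48 libraries. A change passed the test when its adjusted p in edgeR's quasi-likelihood test, with Benjamini-Hochberg adjustment over all genes tested, was under 0.05. The kidney markers Pax2, Pax8 and Cdh16 had medians of 0 to 0.0386 CPM in the AB1 groups and of 17.0 CPM or more in the Renca groups, and Lhx1 was at 0.177 CPM or less in each. Of the mesothelial markers, Wt1 had medians of 1.44 CPM in AB1 responders and 1.37 CPM in AB1 non-responders, and Upk3b, Lrrn4 and Krt19 were at 0 to 0.11 CPM. These 4 mesothelial markers were low or near 0 in AB1, 3 others (Msln, Krt8 and Krt18) are not analysed here, and the label is given as that of the injected line. AB1 non-responder 3 stood apart: it was the lowest of its group for 39 of the 44 genes, had the highest skeletal muscle and skin marker levels of that group, and had the lowest RNA 260/230 ratio of all 48 libraries (1.08). Results that rest on it are given with and without it, except the correlations of gene pairs, where it was not left out on its own.

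The promoters of both classes were read for short words, because S phase and mitotic genes are known to be switched on through different ones. RefSeq promoters (GRCm38.p6, from 250 bases before to 50 bases after the annotated start) were found for 35 of the 44 genes. On either strand, 9 of 17 S phase genes (52.9%) held an E2F word (TTCCCGC, the like word TTCGCGC, the word TTGCCGC or else TTGGCGC), against 10.9% of all 27025 genes of the promoter table, and 4 of 17 (23.5%) held a CHR word (TTTGAA or TTCGAA), against 21.7%. Of the mitotic genes, 3 of 16 (18.8%) held an E2F word and 12 of 16 (75.0%) a CHR word, and the same 75.0% held a CHR word together with CCAAT, a pair found in 8.61% of all genes. CCAAT, with or without a CHR word, was in 64.7% of the S phase genes, 87.5% of the mitotic genes and 41.1% of all genes. A gene with several annotated starts counted as holding a word when any of its windows did. These matches describe letters and not binding, and E2F words can lie over other words: in Mcm6 the forward and reverse words share letters, and in Ccnb1 an E2F word read on the reverse strand runs into CCAAT. The 150 bases just before the start are printed for 3 S phase and 4 mitotic genes whose values follow, in their own 5′ to 3′ direction, with capitals for E2F, CHR and CCAAT words as they read on either strand (CCAAT on the other strand reads ATTGG).
Mcm6 (chr1:128359706-128359855, minus strand): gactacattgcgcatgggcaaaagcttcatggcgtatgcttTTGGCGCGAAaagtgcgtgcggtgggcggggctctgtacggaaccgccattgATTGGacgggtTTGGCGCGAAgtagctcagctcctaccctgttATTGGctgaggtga
Rrm2 (chr12:24708104-24708253, plus strand): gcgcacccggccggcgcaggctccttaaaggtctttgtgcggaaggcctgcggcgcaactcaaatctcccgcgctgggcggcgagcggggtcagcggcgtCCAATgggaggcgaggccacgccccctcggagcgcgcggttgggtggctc
Mcm2 (chr6:88898781-88898930, minus strand): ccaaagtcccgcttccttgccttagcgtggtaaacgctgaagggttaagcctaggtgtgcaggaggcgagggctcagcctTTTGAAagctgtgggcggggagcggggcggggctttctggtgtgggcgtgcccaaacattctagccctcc
Cdk1 (chr10:69352913-69353062, minus strand): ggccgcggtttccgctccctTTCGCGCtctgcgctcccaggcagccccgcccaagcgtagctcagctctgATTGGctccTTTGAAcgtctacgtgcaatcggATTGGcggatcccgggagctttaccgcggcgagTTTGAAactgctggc
Cdc20 (chr4:118437344-118437493, minus strand): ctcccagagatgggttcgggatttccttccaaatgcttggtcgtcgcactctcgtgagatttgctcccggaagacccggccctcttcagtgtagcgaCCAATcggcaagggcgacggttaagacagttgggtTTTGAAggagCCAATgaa
Ccnb1 (chr13:100786487-100786636, minus strand): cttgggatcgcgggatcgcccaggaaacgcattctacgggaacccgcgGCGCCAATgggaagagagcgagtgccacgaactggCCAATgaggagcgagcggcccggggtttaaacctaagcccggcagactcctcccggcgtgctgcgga
Ube2c (chr2:164769779-164769928, plus strand): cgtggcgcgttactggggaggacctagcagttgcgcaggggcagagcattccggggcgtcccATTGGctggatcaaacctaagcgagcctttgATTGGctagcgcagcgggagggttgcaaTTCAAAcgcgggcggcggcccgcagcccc

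Mcm6 carries E2F words and CCAAT but no CHR word. Rrm2 has its E2F word farther upstream than the printed bases, and Mcm2 has a CHR word and no E2F word. Cdk1 has both kinds, Cdc20 and Ube2c have a CHR word beside CCAAT, and Ccnb1, which encodes cyclin B1, has CCAAT with none of the CHR letters searched.

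Per kilobase of exon, Pcna, the sliding clamp of DNA polymerase, had the highest level of the 44 genes in each of the 4 groups: 88.8 ± 8.81 CPM per kb in AB1 responders and 106 ± 16.8 CPM per kb in the non-responders, with 144 ± 12.0 CPM per kb in Renca responders and 153 ± 12.0 CPM per kb in the non-responders of that line (mean ± SD, n = 12 each). In AB1 responders it was followed by Ccnd1 (cyclin D1) at 52.9 ± 14.7 CPM per kb. Mki67, the gene of the Ki-67 protein that coats mitotic chromosomes, came next at 38.7 ± 6.07, then Cdkn1a at 38.3 ± 3.45 and Top2a, the topoisomerase that untangles sister chromatids, at 38.2 ± 7.95, and these neighbours did not differ beyond their spread. In Renca responders the second place was taken by Cdkn2a at 86.9 ± 7.85 CPM per kb, followed by Rrm2 at 51.4 ± 6.38 and the helicase subunit gene Mcm3 at 44.9 ± 3.58. Cdkn2a had the lowest level of the 44 in AB1 responders at 0.316 ± 0.125 CPM per kb. Apart from it, the low end held Mcm10, a factor that helps start the helicase, at 2.81 ± 0.461 CPM per kb in AB1 responders and 3.3 ± 0.404 in Renca responders.

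In AB1 tumours, S phase and mitotic genes were lower in responders together, and E2f2 was higher. Of 43 genes tested, 30 fell and 2 rose in AB1 responders, against 32.7% of all 15859 genes tested that fell and 27.7% that rose. So much of the transcriptome differed between these groups (60.4%) that the share of members called has to be read against it. The S phase genes had 14 falls and 1 rise among 20, with a median log2 fold change of -0.33, and the mitotic genes 15 falls among 20, with a median of -0.42, beside -0.04 over all genes tested. In all, 41 of the 43 fold changes were below 0. The ranges of responders and non-responders overlapped for each of the 43, for Cdk1, Birc5 and Aurka only through non-responder 3. The share of all genes that separated the groups was not counted. Cdkn2a had too few counts in AB1 to be tested.

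**Figure D1:**
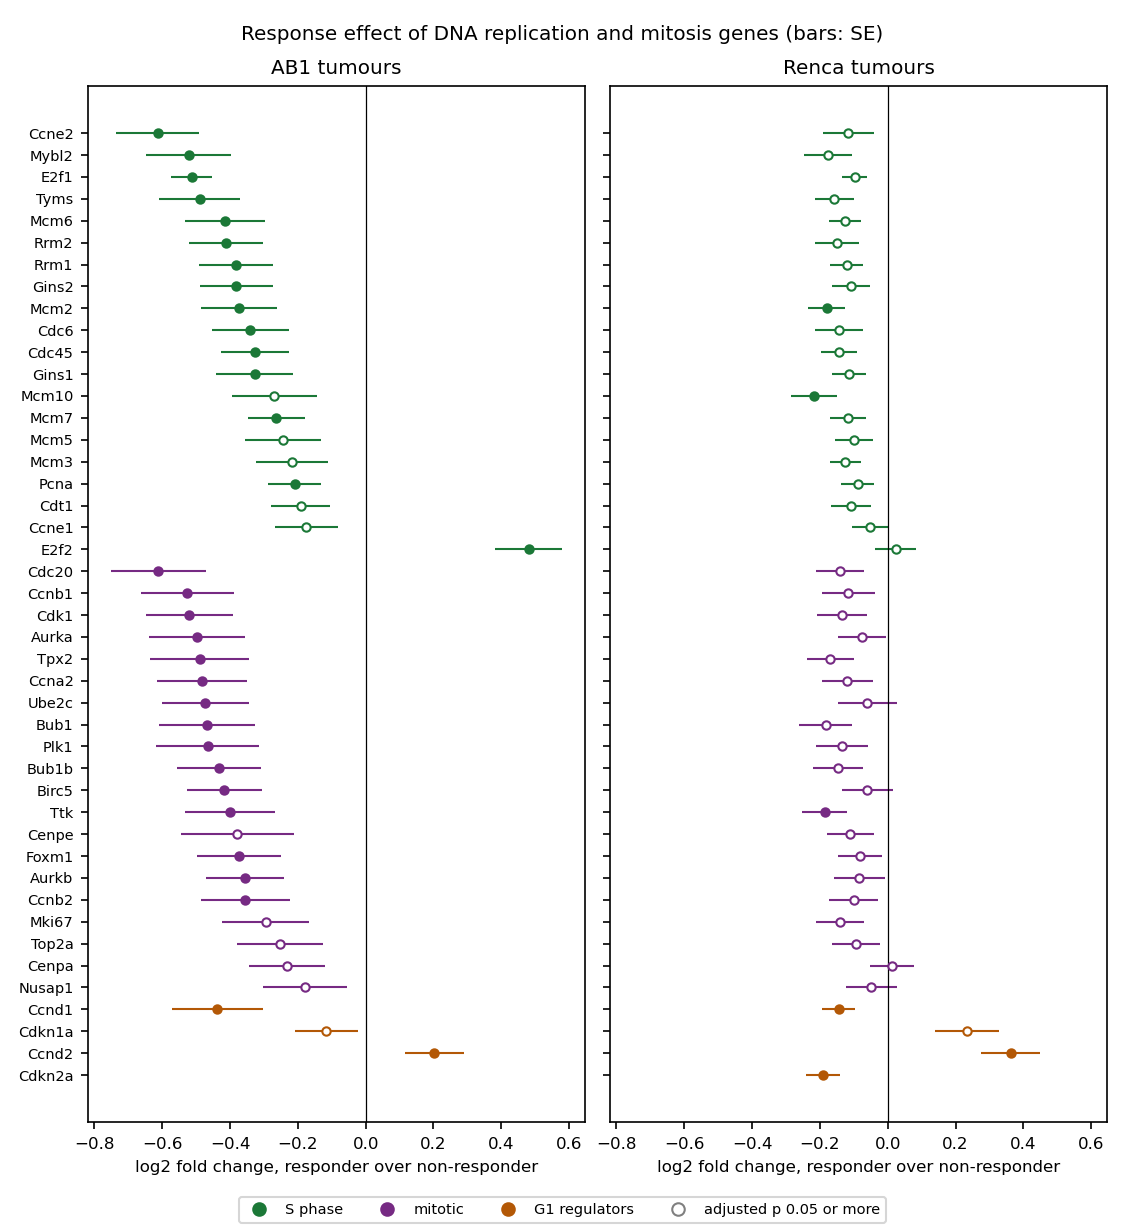
Log2 fold change of responders over non-responders (x axis) for each of the 44 genes (rows) in AB1 tumours on the left and Renca tumours on the right, 12 libraries a group. Points are edgeR estimates, bars are 1 standard error, filled points passed an adjusted p of 0.05, and colours mark S phase, mitotic and G1 genes. In AB1, 41 of 43 points lie left of 0 and E2f2 stands alone among the S phase genes on the right. In Renca the points lie closer to 0 and 6 are filled.

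Of the transcription factors of S phase, E2f1, which switches on S phase genes, had 29.9, 34.1 and 42.9 CPM (lowest, median and highest) in AB1 responders, against 41.8, 51.1 and 63.3 CPM in AB1 non-responders. All 12 responders lay below the non-responder median, and the ranges met only at their edges. E2f1 fell by 0.51 ± 0.06 on the log2 scale (SE, adjusted p = 6.61e-07), and it fell in each flow cell alone (-0.56 in the first and -0.45 in the second). E2f2, the gene of a related activator E2F, went the other way, with 17.1, 21.8 and 27.9 CPM in AB1 responders, against 11.6, 16.4 and 19.6 CPM in AB1 non-responders. All 12 responders lay above the non-responder median, with some overlap. The rise of E2f2 was 0.48 ± 0.10 (adjusted p = 0.000235), and it too passed in each flow cell alone (0.53 and 0.48). Mybl2, the gene of B-Myb, had 24.1, 30.8 and 41.9 CPM in AB1 responders, against 21.6, 47.2 and 64.2 CPM in AB1 non-responders, a fall of 0.52 ± 0.13 (adjusted p = 0.00106). Its lowest value was that of non-responder 3, and the other 11 non-responders had at least 37.1 CPM.

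Of the other S phase genes, Ccne2, whose cyclin E2 starts S phase with Cdk2, had 8.92, 13.1 and 20.8 CPM in AB1 responders, against 14.6, 20.4 and 27.1 CPM in AB1 non-responders. It showed the lowest fold change of the S phase genes, a fall of 0.61 ± 0.12 (adjusted p = 0.000168), with 11 of 12 responders under the non-responder median. Tyms, thymidylate synthase, had 27.9, 34.9 and 44 CPM in AB1 responders, against 21.7, 54.2 and 65.1 CPM in AB1 non-responders, a fall of 0.49 ± 0.12 (adjusted p = 0.00107). Rrm2, the regulated subunit of ribonucleotide reductase, had 68.8, 86.6 and 107 CPM in AB1 responders, against 56.8, 119 and 161 CPM in AB1 non-responders, a fall of 0.41 ± 0.11 (adjusted p = 0.00235). In both genes non-responder 3 was the lowest library of its group, while all 12 responders were below the non-responder median. Of the helicase genes, Mcm6 fell by 0.415 (adjusted p = 0.00386), Mcm2 by 0.37 (0.00627) and Mcm7 by 0.26 (0.00879). Cdc45, Gins1 and Gins2, whose products complete the active helicase, the licensing factor gene Cdc6, Rrm1 and Pcna also fell, at -0.38 to -0.21. The S phase genes that did not pass were the licensing factor gene Cdt1 at -0.19, Mcm5 at -0.24, Mcm10 at -0.27, Mcm3 at -0.22 and Ccne1 (cyclin E1) at -0.17, with adjusted p from 0.062 to 0.109.

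Of the mitotic genes, Cdc20, which activates the anaphase-promoting complex (APC/C), had 41.9, 57.0 and 81.2 CPM in AB1 responders, against 36.4, 90.2 and 124 CPM in AB1 non-responders. It fell by 0.61 ± 0.14 (adjusted p = 0.000728), with all 12 responders below the non-responder median. Cdk1, the kinase that drives mitosis, had 68.1, 98.7 and 127 CPM in AB1 responders, against 64.2, 145 and 192 CPM in AB1 non-responders, and fell by 0.52 ± 0.13 (adjusted p = 0.00131). Ccnb1, its cyclin partner, had 43.1, 61.1 and 87.8 CPM in AB1 responders, against 40.6, 91.0 and 121 CPM in AB1 non-responders, and fell by 0.53 ± 0.14 (adjusted p = 0.00204). In these 3 genes non-responder 3 was the lowest of its group. Without it the lowest Cdk1 value among AB1 non-responders was 128 CPM, above the highest responder at 127 CPM. For Cdc20 and Ccnb1 the other non-responders began at 75.2 and 72.1 CPM, below the highest responders at 81.2 and 87.8 CPM.

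Birc5 (survivin, which anchors the Aurora B kinase at centromeres) had 48.4, 59.1 and 73.9 CPM in AB1 responders, against 38.1, 84.9 and 114 CPM in AB1 non-responders, and fell by 0.42 ± 0.11 (adjusted p = 0.00224). Its lowest non-responder was again non-responder 3, and the other 11 began at 78.1 CPM, above the highest responder. Of the 43 genes tested, Cdk1, Birc5 and Aurka had no overlap once that library was left out. The gaps were narrow for Cdk1 and for Aurka (46.8 against 46.3 CPM). The share of all genes without overlap was not counted, and 62.4% of them passed the test in that fit. Ube2c, the APC/C's ubiquitin-conjugating enzyme, had 46.0, 64.3 and 87.8 CPM in AB1 responders, against 47.5, 90.4 and 132 CPM in AB1 non-responders, and fell by 0.47 ± 0.13 (adjusted p = 0.00286). Ccna2 (cyclin A2) had 83, 106 and 151 CPM in AB1 responders, against 71.2, 162 and 214 CPM in AB1 non-responders, and fell by 0.48 ± 0.13 (adjusted p = 0.00315). For Birc5, Ube2c and Ccna2 all 12 responders were below the non-responder median. The spindle and checkpoint kinase genes Aurka (-0.50), Plk1 (-0.47), Bub1 (-0.47), Bub1b (-0.43), Ttk (-0.40) and Aurkb (-0.35) also fell, as did Tpx2, the activator of Aurora A (-0.49), Foxm1 (-0.37) and Ccnb2, the gene of cyclin B2 (-0.35). The 5 that did not pass were Mki67, Cenpa and Cenpe (centromeric histone and kinetochore motor), Top2a and Nusap1, a spindle microtubule protein, at -0.18 to -0.38. Mki67, the usual stain for proliferation, had 303, 361 and 502 CPM in AB1 responders, against 191, 513 and 617 CPM in AB1 non-responders. Its fold change was -0.29 ± 0.13 (adjusted p = 0.052), although all 12 responders were below the non-responder median.

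**Figure D2:**
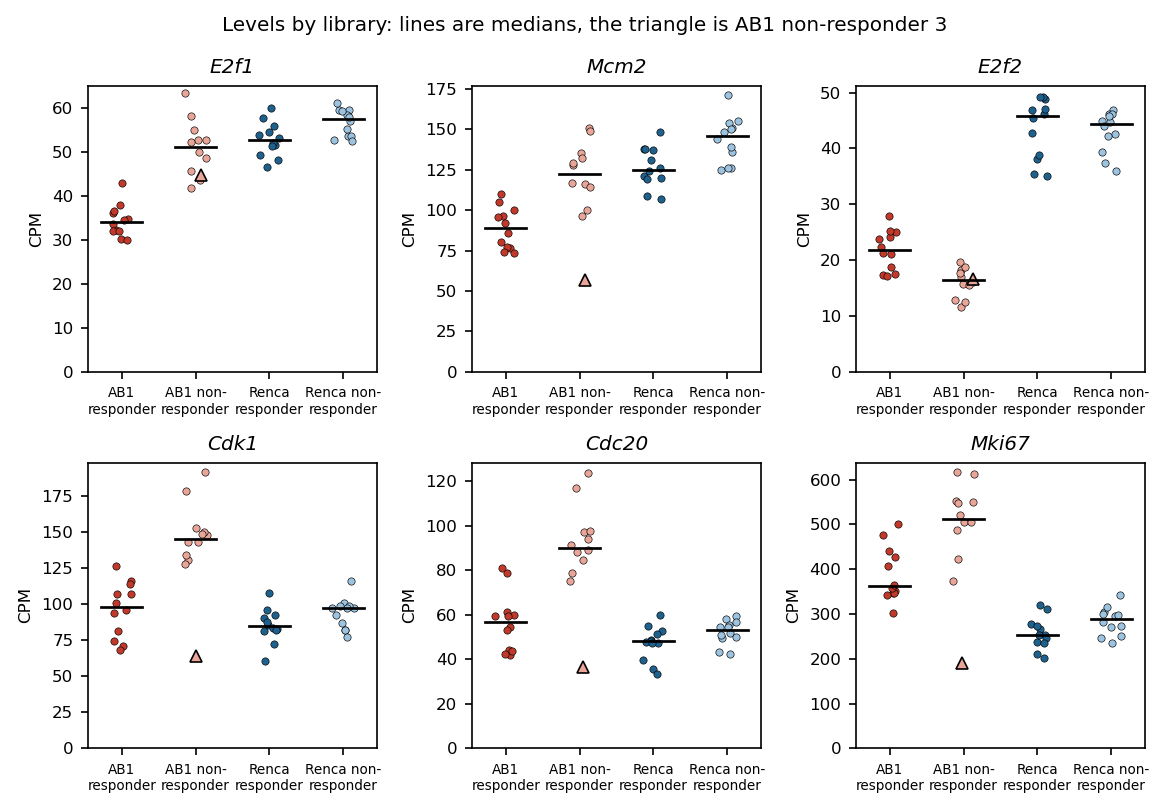
CPM (y axis, from 0) of E2f1, Mcm2, E2f2, Cdk1, Cdc20 and Mki67 in each library, with groups from left to right AB1 responders, AB1 non-responders, Renca responders and Renca non-responders (12 each). Points are libraries, lines are medians and the triangle is AB1 non-responder 3, which is the lowest of its group in Mcm2, Cdk1, Cdc20 and Mki67 but not in E2f1 or E2f2.

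The 4 G1 regulators did not move as a block. Ccnd1 had 164, 239 and 357 CPM in AB1 responders, against 232, 343 and 452 CPM in AB1 non-responders, and fell by 0.44 ± 0.13 (adjusted p = 0.00666), though not in the first flow cell alone (-0.30, adjusted p = 0.216). Ccnd2 (cyclin D2) had 83.9, 103 and 117 CPM in AB1 responders, against 60.2, 91.7 and 124 CPM in AB1 non-responders, and rose by 0.20 ± 0.09 (adjusted p = 0.0492). In 12 of 24 fits with a library removed, that call was gone (responders 3, 6, 7 and 11 and non-responders 1, 2, 4, 5, 8, 9, 10 and 12), where Ccnd2 was at 0.16 to 0.21 with adjusted p of 0.0546 to 0.0881. Cdkn1a, the gene of the CDK inhibitor p21, had 117, 137 and 152 CPM in AB1 responders, against 109, 145 and 241 CPM in AB1 non-responders, at -0.12 ± 0.09 (adjusted p = 0.293). The 241 CPM was non-responder 3, which was also the highest of its group in Ccnd2, and without it Cdkn1a was at -0.01. Cdkn2a was at 0.136, 0.343 and 0.61 CPM in AB1 responders, against 0.119, 0.321 and 0.437 CPM in AB1 non-responders.

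**Figure D3:**
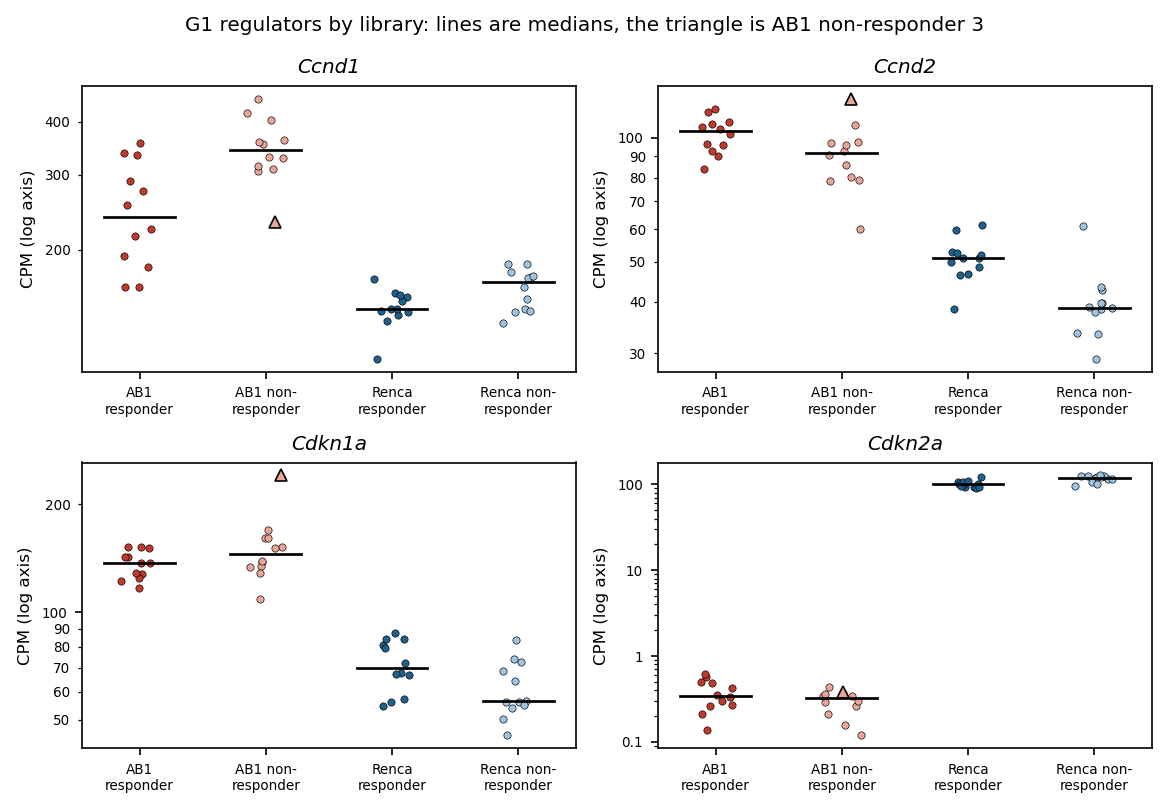
CPM (y axis, log scale) of the G1 regulators Ccnd1, Ccnd2, Cdkn1a and Cdkn2a in each library, with groups from left to right AB1 responders, AB1 non-responders, Renca responders and Renca non-responders (12 each). Lines are medians and the triangle is AB1 non-responder 3, which at 241 CPM is the highest library in Cdkn1a. Cdkn2a is under 1 CPM in all AB1 libraries and above 90 CPM in all Renca libraries.

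The AB1 counts depended on 1 library and on the flow cell. Without non-responder 3, 40 of 43 genes fell, at medians of -0.39 for S phase and -0.48 for mitotic genes. Mki67 passed at -0.37 (adjusted p = 0.00029), as did Ccne1, Mcm5, Cdt1, Mcm10, Mcm3, Top2a, Nusap1, Cenpa and Cenpe. Of all genes, 31.4% fell in that fit (62.4% called in either direction). In the first flow cell alone (5 responders and 5 non-responders, with non-responder 3 among them), E2f1 and Ccne2 fell and E2f2 rose, and no other member passed, with medians of -0.19 and -0.29. In that flow cell without non-responder 3, 30 members fell, and in the second flow cell alone (7 responders and 7 non-responders) 38 fell. Of all genes, 18.1%, 21.1% and 23.4% fell in these 3 fits, and 37.6%, 44.2% and 50% were called in either direction. With scaling by library size only, 39 members fell, while the split over all genes was 3575 higher and 6628 lower, against 4396 and 5181 with TMM scaling. Pcna and Ccnb2 lost their calls without responder 10, at -0.18 (adjusted p = 0.0615) and -0.31 (adjusted p = 0.0529).

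Other genes of the same pathways, written as separate lists, mostly fell in AB1 too, where 32.7% of all genes fell and 27.7% rose. These lists were also chosen with earlier results of these data known. Of 44 further S phase genes, 25 fell and 2 rose (median -0.24), including Tk1, thymidine kinase, at -0.47 ± 0.11 (adjusted p = 0.000838), and Orc6, of the origin recognition complex, at -0.46 ± 0.08 (adjusted p = 5e-05). Pold3, a subunit of DNA polymerase delta, rose by 0.28 ± 0.04 (adjusted p = 1.37e-05). Of 46 further mitotic genes, 38 fell and 0 rose in edgeR (40 had an unadjusted p under 0.05; median -0.40). They included Psrc1, a spindle protein gene, at -0.86 ± 0.16 (adjusted p = 6.5e-05), Hjurp, the loader of Cenpa, at -0.41 ± 0.08 (0.000167), and Cdc25b, a phosphatase that activates Cdk1, at -0.47 ± 0.08 (2.16e-05).

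Of 7 genes for CDK inhibitors and retinoblastoma proteins, 4 rose and 2 fell in AB1 responders, in a comparison where 60.4% of all genes passed (27.7% higher and 32.7% lower), as holds for the lists of G1 genes and p53 targets that follow. The retinoblastoma family genes Rbl2 (0.71 ± 0.08, adjusted p = 5.83e-07), Rb1 (0.48 ± 0.08, 2.52e-05) and Rbl1 (0.33, 0.00472) rose, as did Cdkn1b, the gene of the inhibitor p27 (0.27 ± 0.07, 0.00374), while the inhibitor genes Cdkn1c (-0.84, 0.0278) and Cdkn2c (-0.34, 0.00882) fell. Of 8 further G1 genes, 5 fell and 2 rose, with Cdk4, the kinase partner of cyclin D, at -0.53 ± 0.08 (adjusted p = 4.51e-06), E2f5 at -0.33 ± 0.06 (3.96e-05) and the phosphatase gene Cdc25a at -0.23 ± 0.05 (0.000517). Of 14 targets of p53, 9 fell and 2 rose, led by Phlda3 (-0.86 ± 0.12, adjusted p = 4.49e-06), Zmat3 (-0.80 ± 0.12, 4.61e-06) and Aen (-0.53 ± 0.08, 1.28e-05), while Cdkn1a, itself such a target, did not pass.

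Cell type markers also differed between the AB1 groups. All 10 leukocyte markers tested rose (median 1.26), as did all 10 T cell markers (median 1.84) and 7 of 8 macrophage markers (median 0.95), while 6 of 8 fibroblast markers fell (median -0.83). The 10 leukocyte markers summed to 2943 to 6696 CPM in AB1 responders, against 1691 to 3040 CPM in AB1 non-responders, and the T cell markers to 206 to 530 CPM in responders, against 29.9 to 180 CPM in non-responders. The macrophage markers summed to 3043 to 4888 CPM in responders, against 1861 to 3027 CPM in non-responders, and the fibroblast markers to 10162 to 28265 CPM in responders, against 19819 to 33074 CPM in non-responders. Both skin markers tested fell (-3.22 and -4.68), with sums of 0.532 to 73.3 CPM in responders and 0.391 to 700 CPM in non-responders, of which non-responder 3 was the highest. Skeletal muscle markers summed to 100 to 1108 CPM in responders and 51.5 to 2673 CPM in non-responders, and 0 of 5 passed in edgeR (0 had an unadjusted p under 0.05). With the muscle level as a covariate 38 members fell, and 40 fell without the 3 libraries of highest skin level (responder 3, non-responders 3 and 7). Of all genes, 33.3% and 32.8% fell in these fits. The part of leukocyte and stromal content in the differences was not tested.

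In Renca tumours few of the genes passed. Of 44 genes tested, 5 fell and 1 rose in Renca responders, against 8.52% of all 15778 genes tested that fell and 11.1% that rose (19.6% in all), while 38 did not pass. Called or not, 40 of the 44 fold changes were below 0. The S phase genes had a median of -0.12 and the mitotic genes -0.11, beside -0.01 over all genes tested. Those that fell were Mcm2, Mcm10, Ttk, Ccnd1 and Cdkn2a, and Ccnd2 rose.

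Mcm2 had 107, 125 and 148 CPM in Renca responders, against 125, 146 and 171 CPM in Renca non-responders, a fall of 0.18 ± 0.05 (adjusted p = 0.0223). Mcm10 had 18.0, 26.0 and 29.8 CPM in Renca responders, against 25.2, 29.0 and 35.9 CPM in Renca non-responders, a fall of 0.22 ± 0.07 (adjusted p = 0.0261). For both genes 11 of 12 responders were below the non-responder median and the ranges overlapped. Tyms had 26.8, 34.0 and 38.1 CPM in Renca responders, against 30.7, 36.8 and 46.3 CPM in Renca non-responders, at -0.16 ± 0.06 (adjusted p = 0.0516). Mcm3 (-0.12, adjusted p = 0.0524), Cdc45, the helicase's activating partner (-0.14, 0.0584), and Mcm6 (-0.13, 0.0584) also did not pass. Mcm3 had 139, 171 and 186 CPM in Renca responders, against 167, 182 and 219 CPM in Renca non-responders. Cdc45 had 28.5, 37.1 and 44.7 CPM in responders, against 36.2, 41.5 and 47.6 CPM in non-responders, and Mcm6 152, 180 and 205 CPM, against 175, 200 and 223 CPM. In each of these the ranges of the groups overlapped.

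Ttk, the Mps1 checkpoint kinase, had 14.9, 18.9 and 21.7 CPM in Renca responders, against 17.1, 21.5 and 25.2 CPM in Renca non-responders. It fell by 0.19 ± 0.07 (adjusted p = 0.0499), and with same-numbered libraries as a replicate block its adjusted p was 0.0869 at -0.18. The next mitotic genes by p did not pass: Tpx2 had 91.0, 129 and 147 CPM in responders, against 114, 143 and 174 CPM in non-responders (-0.17 ± 0.07, adjusted p = 0.0913). Bub1 had 26.3, 35.9 and 44.3 CPM in responders, against 29.3, 40.8 and 51.8 CPM in non-responders (-0.18 ± 0.08, adjusted p = 0.105). These checkpoint and spindle genes had 11 of 12 responders below the non-responder median. Bub1b had 48.3, 60.5 and 78.5 CPM in responders, against 52.5, 67.1 and 80.2 CPM in non-responders (-0.15 ± 0.07, adjusted p = 0.163). Cdc20 had 33.6, 48.0 and 60.0 CPM in responders, against 42.5, 53.2 and 59.5 CPM in non-responders (-0.14 ± 0.07, adjusted p = 0.172). Mki67 had 201, 252 and 319 CPM in responders, against 235, 289 and 343 CPM in non-responders (-0.14 ± 0.07, adjusted p = 0.173). E2f1 was at -0.10 (adjusted p = 0.0653) and E2f2 at 0.02 (0.831). The other S phase genes lay at -0.17 (Mybl2) to -0.05 (Ccne1), and the other mitotic genes at -0.14 (Cdk1) to 0.01 (Cenpa), and none passed.

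Of the G1 regulators in Renca, Ccnd2 had 38.5, 51.1 and 61.3 CPM in responders, against 29.1, 38.7 and 61.0 CPM in non-responders, and rose by 0.36 ± 0.09 (adjusted p = 0.0066), and 11 of 12 responders exceeded the median of the non-responders. Cdkn2a, which encodes both p16INK4a and p19ARF, had 91.7, 101 and 123 CPM in responders, against 96.9, 120 and 127 CPM in non-responders, and fell by 0.19 ± 0.05 (adjusted p = 0.011). Ccnd1 had 111, 145 and 171 CPM in responders, against 135, 168 and 185 CPM in non-responders, and fell by 0.14 ± 0.05 (adjusted p = 0.0371). Cdkn1a had 54.6, 70.0 and 87.7 CPM in responders, against 45.3, 56.4 and 83.5 CPM in non-responders, at 0.23 ± 0.10 (adjusted p = 0.0858). It thus had a positive value in Renca and a negative value in AB1, and neither passed.

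Of the 6 Renca calls, 4 were lost when single libraries were left out. The number of members that fell was 20 without responder 11, 10 without non-responder 3 and 1, Cdkn2a, without non-responder 4. In these fits 8.24%, 11.3% and 5.07% of all genes fell. The number of members was 3 without responders 1 or 3 or non-responders 2 or 11 (6.53% to 7.49% of all genes). It was 2 without responders 6 or 8 or non-responders 1, 7 or 10 (5.0% to 6.84% of all genes). Mcm2 lost its call without responder 8 or non-responder 4 (-0.15, adjusted p = 0.0514 to 0.0545), and Mcm10 without responder 6 or non-responders 1, 4, 7 or 10 (-0.20 to -0.18, adjusted p = 0.0512 to 0.0629). Ccnd1 kept it only without responders 5, 7, 9, 10, 11 or 12 or non-responders 3, 6, 8, 9 or 12, and otherwise had an adjusted p of 0.0522 to 0.0965. Ttk kept it only without responders 4, 9 or 11 or non-responders 3, 5 or 12, and otherwise had an adjusted p of 0.0594 to 0.118. Cdkn2a and Ccnd2 kept theirs in all 24 fits. Responder 11 was the highest of its group for 33 of the 44 genes and responder 8 the lowest for 29, while non-responder 4 was the highest of its group for 31 and non-responder 12 the lowest for 30. Responder 11 had the lowest sums of skeletal muscle (37.7 CPM) and endothelial markers (476 CPM) of its group, and responder 8 the highest leukocyte sum (3328 CPM) and the lowest kidney sum (205 CPM). Non-responder 4 had the lowest leukocyte (1568 CPM), T cell (91.6 CPM), fibroblast (12620 CPM) and muscle sums (62.2 CPM) of its group. Cdkn1a passed as higher without responders 4 or 9 or non-responder 3 (0.27, adjusted p = 0.031 to 0.0477). In the first flow cell alone (6 of each group) 0 members passed in edgeR (18 were lower and 1 higher at an unadjusted p under 0.05, and 0 genes of the whole table passed). In the second flow cell Ccnd2 rose (0.37, adjusted p = 0.0325) and 0 members fell (3 at an unadjusted p under 0.05), beside 2.48% of all genes that fell. With the 2 RNA purity ratios as covariates 0 members passed (5 lower and 1 higher at an unadjusted p under 0.05), in a fit where 1.29% of all genes passed.

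Of the further lists in Renca, 11 of 44 other S phase genes and 2 of 46 other mitotic genes fell and 0 rose in edgeR (at an unadjusted p under 0.05, 22 and 9 in either direction). Of all genes, 8.52% fell and 11.1% rose. Rbl2 (0.17 ± 0.04, adjusted p = 0.00919), Cdkn1b (0.13 ± 0.04, 0.03) and Rb1 (0.11 ± 0.04, 0.042) rose here too, Cdkn1c rose by 0.62 ± 0.21 (0.0388) where it fell in AB1, and Cdk4 fell by 0.11 ± 0.03 (0.0121). All 10 leukocyte markers (median 0.40) and all 10 T cell markers (median 0.87) rose and 4 of 4 kidney markers fell (median -0.26). The leukocyte markers summed to 2097 to 3328 CPM in Renca responders, against 1568 to 2596 CPM in Renca non-responders, the T cell markers to 200 to 466 CPM, against 91.6 to 294 CPM, and the kidney markers to 205 to 353 CPM, against 309 to 465 CPM. With scaling by library size only, 16 members fell and the split over all genes was 1384 higher and 2464 lower, against 1750 and 1345 with TMM scaling. The part of these cell type markers was not tested.

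The test of the difference between the response effects, AB1 minus Renca, passed for 5 of the 44 genes, against 41.6% of all 16920 genes tested (18.6% lower and 22.9% higher). The response effect was lower in AB1 for E2f1 (-0.38 ± 0.07, adjusted p = 6.99e-05), Ccne2 (-0.47 ± 0.15, 0.00973) and Cdc20 (-0.44 ± 0.17, 0.0289), and higher in AB1 for E2f2 (0.49 ± 0.12, 0.000842) and Cdkn2a (0.59 ± 0.19, 0.0147). In AB1, Cdkn2a rested on 3 to 14 counts a library, and without a filter on low counts its difference did not pass (0.52, adjusted p = 0.0579). With the replicate block, Cdc20 did not pass either (-0.42, adjusted p = 0.0603). For 42 of the 44 genes the difference was below 0, with medians of -0.16 for S phase genes and -0.26 for mitotic genes, beside 0.0 over all genes tested. Ube2c, Aurka, Birc5 and Cdkn1a lay just past the threshold (adjusted p = 0.0511 to 0.0531). Without AB1 non-responder 3 the response effect was lower in AB1 for 24 genes, against 19.7% of all genes, with Cdk1 (-0.43, adjusted p = 0.00552), Ccnb1 (-0.45, 0.00711), Mcm6 (-0.33, 0.00441) and Tyms (-0.38, 0.00145) among them. With scaling by library size only the count was 15, and the split over all genes was 2943 higher and 4507 lower, against 3877 and 3155 with TMM scaling.

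Between the tumour lines the classes of members parted: most mitotic members were higher in AB1 and most S phase members were lower. The 44 further S phase genes did not share that fall (20 higher and 11 lower, median 0.07). Of 44 genes, 23 were higher and 14 lower in AB1 than in Renca, against 42.2% and 39.3% of all 16258 genes tested (81.4% in all, median 0.03). Of 20 mitotic genes, 16 were higher and 0 lower in edgeR (17 had an unadjusted p under 0.05), with a median of 0.39. Of 20 S phase genes, 13 were lower and 4 higher, with a median of -0.28. Tumour line, day of removal and flow cell cannot be told apart in this comparison.

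**Figure D4:**
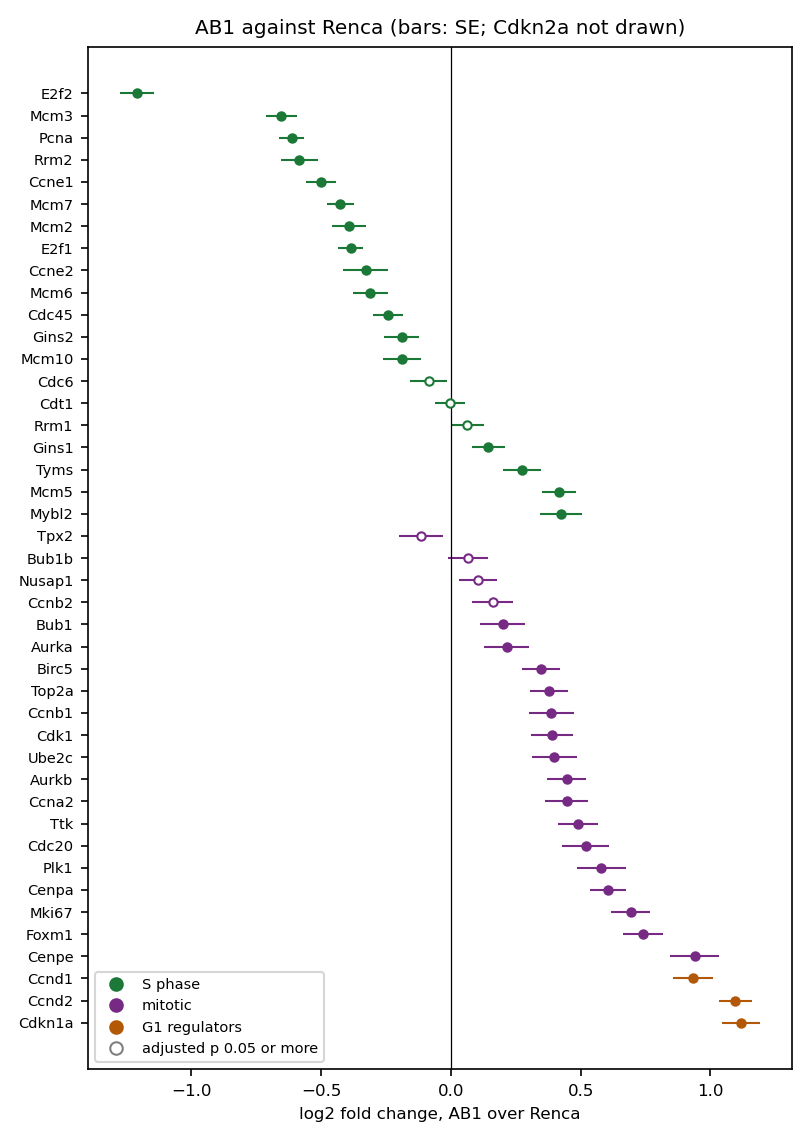
Log2 fold change of AB1 over Renca (x axis) for 43 genes (rows), from 24 libraries of each tumour. Points are edgeR estimates, bars are 1 standard error, filled points passed an adjusted p of 0.05, and colours mark S phase, mitotic and G1 genes. Mitotic genes lie mostly right of 0 and S phase genes mostly left, with E2f2 farthest left at -1.21. Cdkn2a, at -8.34, is not drawn.

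Cenpe, the kinetochore motor, was the highest of the mitotic genes by fold, with 58.5, 88.4 and 136 CPM in AB1 responders and 40.7, 129 and 155 CPM in AB1 non-responders, against 42.2, 51.3 and 65.0 CPM in Renca responders and 48.9, 58.2 and 65.8 CPM in Renca non-responders. Its log2 fold change was 0.94 ± 0.09 (adjusted p = 1.02e-12), and 23 of 24 AB1 libraries lay above the Renca median, all but non-responder 3. Foxm1, the transcription factor of mitotic genes, had medians of 86.4 and 114 CPM in AB1 responders and non-responders, against 59.2 and 61.4 CPM in Renca responders and non-responders (0.74 ± 0.08, adjusted p = 2.17e-12). Mki67 followed at 0.69 ± 0.08 (1.87e-11), then Cenpa at 0.60 ± 0.07 (5.25e-11) and Plk1 at 0.58 ± 0.09 (2.38e-07). Ccnb2, Nusap1, Tpx2 and Bub1b did not pass, at -0.11 to 0.16. Ccnb2 and Nusap1 passed as higher without AB1 non-responder 3.

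E2f2 was lower in AB1 by 1.21 ± 0.06 on the log2 scale (adjusted p = 1.7e-22), and its ranges did not overlap: 17.1, 21.8 and 27.9 CPM in AB1 responders and 11.6, 16.4 and 19.6 CPM in AB1 non-responders, against 35.1, 45.8 and 49.3 CPM in Renca responders and 35.9, 44.3 and 46.9 CPM in Renca non-responders. For E2f2, and for Cdkn2a and Cdkn1a below, the share of all genes with such a separation was not counted. In the test 81.4% of all genes passed. Mcm3 (-0.65 ± 0.06, adjusted p = 6.69e-14), Pcna (-0.61 ± 0.05, 2.88e-16), Rrm2 (-0.58 ± 0.07, 1.65e-10) and Ccne1 (-0.50 ± 0.06, 4.98e-11) were also lower. Pcna had medians of 215 and 261 CPM in AB1 responders and non-responders, against 343 and 361 CPM in Renca responders and non-responders. All 24 AB1 libraries lay below the Renca median for E2f2, Mcm3 and Pcna. The MCM genes did not keep together, since Mcm5 was higher in AB1 (0.42 ± 0.07, adjusted p = 1.92e-07) while Mcm2, Mcm3, Mcm6, Mcm7 and Mcm10 were lower. Mybl2 (0.42 ± 0.08, 5.9e-06), Tyms (0.27 ± 0.07, 0.000669) and Gins1, a helicase cofactor (0.14 ± 0.06, 0.0369), were the other S phase genes higher in AB1. With responders alone Tyms (0.08, adjusted p = 0.295) and Gins1 (0.01, 0.863) did not pass, and with non-responders alone Mcm6 (-0.17, 0.127) and Mcm10 (-0.16, 0.204) did not.

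Of the G1 regulators, Cdkn2a was at 0.119 to 0.61 CPM in the 24 AB1 libraries, against 91.7 to 127 CPM in the 24 Renca libraries, a log2 fold change of -8.34 ± 0.09 (adjusted p = 3.68e-52). Cdkn1a was higher in AB1 with no overlap, at 117 to 152 CPM in AB1 responders and 109 to 241 CPM in AB1 non-responders, against 54.6 to 87.7 CPM in Renca responders and 45.3 to 83.5 CPM in Renca non-responders (1.12 ± 0.07, adjusted p = 2.52e-19). Ccnd2 (1.10 ± 0.06, 2.25e-21) and Ccnd1 (0.93 ± 0.08, 1.93e-15) were higher in AB1 as well, with all 24 AB1 libraries above the Renca median and ranges that overlapped at their edges. None of these 4 calls changed with responders or non-responders alone.

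With responders alone 15 genes were higher and 16 lower in AB1, against 38.5% of all genes higher and 38.5% lower, at medians of -0.42 for S phase and 0.21 for mitotic genes, and Aurka, at 0.22 over all libraries, was at -0.02 (adjusted p = 0.848). With non-responders alone 24 were higher and 9 lower, against 38.3% and 38.1% of all genes, at medians of -0.16 and 0.59. Tpx2 was lower in AB1 with responders alone (-0.30, adjusted p = 0.0102). Bub1, Gins1 and Aurka lost their calls with scaling by library size only (0.10 to 0.17). Over all 48 libraries the further lists showed a like split for mitotic genes, 34 of 46 higher and 1 lower (median 0.34), but not for S phase genes, with 20 of 44 higher and 11 lower (median 0.07). Of all genes, 42.2% were higher and 39.3% lower. Psrc1 was the highest of the further mitotic genes at 2.00 ± 0.11 (adjusted p = 8.15e-23).

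The balance of the classes within each tumour was followed as the mean log2 CPM of the 20 S phase genes minus that of the 20 mitotic genes, a description without a test. For AB1 it was -0.74 ± 0.11 among responders and -0.83 ± 0.12 among non-responders, and for Renca -0.16 ± 0.08 among responders and -0.15 ± 0.06 among non-responders (SD, n = 12 each). All 24 AB1 tumours, at -0.96 to -0.52, lay below all 24 Renca tumours, at -0.31 to -0.02. Tumour line, day of removal and flow cell cannot be told apart here either. Over the further lists the values were -1.08 to -0.65 in AB1 and -0.58 to -0.34 in Renca, again without overlap. The difference of responders minus non-responders was 0.10 in AB1 and -0.01 in Renca, within 1 SD of libraries in either group, and over the further lists it was 0.15 in AB1 (SD of 0.10 in responders and 0.09 in non-responders) and -0.003 in Renca. Without AB1 non-responder 3, whose balance of -0.52 was the highest of the AB1 libraries, the AB1 difference was 0.13, beside an SD of 0.11 in responders and 0.06 in the other 11 non-responders. For the S phase level itself, responders minus non-responders came to -0.33 in AB1 and -0.13 in Renca, and for the mitotic level to -0.43 and -0.12.

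**Figure D5:**
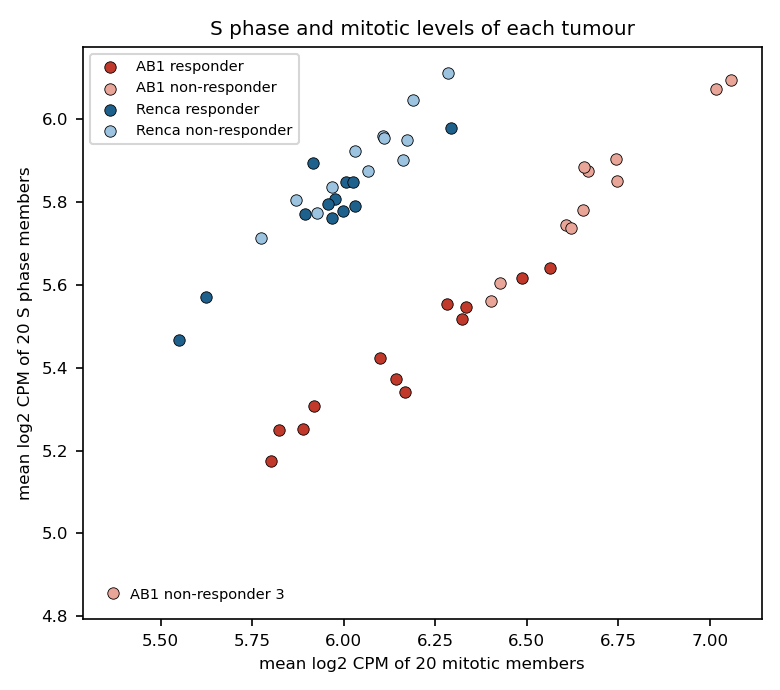
Mean log2 CPM of the 20 S phase genes (y axis) against that of the 20 mitotic genes (x axis), with 1 point for each of the 48 tumours, coloured by group. AB1 tumours spread along a line from non-responder 3 at the low end (4.86 and 5.37) to non-responder 9 at the high end (6.09 and 7.06), and Renca tumours form a shorter row above it, at a higher S phase level for the same mitotic level.

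Across the 12 libraries of each group, 3 gene pairs were followed, 12 relations in all, with 100000 resamples and p adjusted over the 12. Mcm5 with Cdk1, a helicase gene with the mitotic kinase, had Pearson r of 0.78 among AB1 responders (permutation adjusted p = 0.0066) and 0.97 among AB1 non-responders (0.00036), with 0.84 for Renca responders (0.0066) and likewise 0.84 for Renca non-responders (0.00636). Spearman's rho was 0.69, 0.89, 0.59 and 0.61 in the same order of groups, and only that of AB1 non-responders passed (permutation adjusted p = 0.00252, against 0.091, 0.116 and 0.116). Without the 2 libraries farthest from the median of Mcm5, r was 0.65, 0.87, 0.68 and 0.54. Within the first flow cell r was 0.10 for Renca responders and 0.91 for Renca non-responders, and within the second it was 0.76 to 0.90 in the 4 groups. The first flow cell held only 5 libraries of each AB1 group, too few for a value. Mki67 with Cdkn1a had r of -0.83 in AB1 non-responders (permutation adjusted p = 0.011, and 0.116 for a rho of -0.58). This r rested on 2 libraries, since it was -0.38 without them and -0.40 within the second flow cell. Among them was non-responder 3, the lowest of its group in Mki67 (191 CPM) and the highest in Cdkn1a (241 CPM). That library was also the lowest of its group in Mcm5 (57.0 CPM) and Cdk1 (64.2 CPM). No pair was followed with it alone left out. In the other 3 groups Mki67 with Cdkn1a had r of 0.17, -0.09 and 0.25 with adjusted p of 0.692 or more for r and 0.486 or more for rho. Without the 2 farthest libraries r was 0.30 for AB1 responders, -0.66 for Renca responders and -0.32 for Renca non-responders. Renca responders had r of -0.78 within the first flow cell and 0.17 within the second, Renca non-responders 0.05 and 0.83, and AB1 responders 0.52 within the second. Mki67 with Ptprc, the common leukocyte gene, had r of -0.24, -0.19, -0.12 and -0.53 in AB1 responders, AB1 non-responders, Renca responders and Renca non-responders, and none passed (adjusted p of 0.156 or more for r and 0.116 or more for rho). Without the 2 farthest libraries that r was -0.42 to -0.14, and within single flow cells it was -0.76 to 0.04.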

How the data were processed

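RNA of 48 frozen whole tumours was sequenced on Illumina instruments, per the labels' protocols. The authors deposited 1 table of raw counts per gene and library. The submitters' processing notes name HISAT2 2.0.4, StringTie 1.3.0, bcl2fastq 2.18.0.12 and the builds GRCh37 and hg19, which are human; the mouse build is not given in the sources used here. Counts were taken as deposited, with group and replicate from the sample titles and flow cell and lane from the labels. The members and lists were chosen with earlier results of these data known.

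Each tumour was fitted alone in edgeR 4.0.16 (R 4.3.3) with flow cell and response as terms, TMM scaling, edgeR's filter on low counts and Benjamini-Hochberg adjustment at 0.05. The difference of response effects and the comparison of AB1 with Renca used all 48 libraries, the second of these with response as a term. CPM was scaled by TMM over the 48 libraries, log2 CPM used a prior count of 2, and CPM per kb used exon lengths of GENCODE M21, to which 39461 of 39637 IDs matched. The response fits were also run on simulated counts that held no flow cell effect and no outlying library, and no result above rests on that run. DESeq2 1.42.0, scaling by library size, no filter, covariates, single flow cells and left-out libraries were the alternatives.

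Named in full were the 6 S phase and 6 mitotic genes of lowest p in each response comparison, the 5 of largest rise and fall between tumours, the G1 regulators, Mki67, and 3 genes of each other list by p in AB1. Other values named were chosen after they were seen. By the labels, the responder and the non-responder of each number ran on the same lane, but numbers 9 to 12 of each tumour all shared 1 lane, so a number marks a lane only up to 8, and none marks a shared animal. Their deviations from the group means correlated at -0.133 to 0.66 in AB1 (5 of 12 over 0.1) and -0.253 to 0.504 in Renca (7 of 12). The p-values measure the spread between these tumours. A marker in the kidney counts and sums is not reported here on its own.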

Additional observations from a re-analysis of the deposited data

Results flagged for a closer look

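The response effect differed between the tumour lines, by the test of the difference itself, for 5 of the 44 genes, against 41.6% of all 16920 genes tested. Given as AB1 minus Renca on the log2 scale, with edgeR's adjusted p, the differences were -0.384 for E2f1 (6.99e-05), -0.467 for Ccne2 (0.00973), -0.439 for Cdc20 (0.0289), 0.492 for E2f2 (0.000842) and 0.59 for Cdkn2a (0.0147). E2f1 fell in AB1 responders and had a median of 52.7 CPM in Renca responders, against 57.4 CPM in Renca non-responders. E2f2 rose in AB1 responders and had a median of 45.8 CPM in Renca responders, against 44.3 CPM in Renca non-responders. Ccne2 had a median of 21.3 CPM in Renca responders, against 22 CPM in Renca non-responders. The difference for Cdkn2a rests on a gene at under 1 CPM in AB1 and did not pass without a filter on low counts. That for Cdc20 did not pass with the replicate block.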

How the results depend on the processing

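In AB1, 2 fell in the first flow cell alone, where 5816 genes passed and 18.1% of all genes fell. Only 1 rose (against 2) with library size scaling, no flow cell term, either flow cell alone or the purity ratios. Without 1 library 1 to 2 rose and 28 to 40 fell, beside 28.9% to 34.3% of all genes that fell. In Renca, 9 fell with DESeq2, 16 with library size scaling, 3 with no filter or with the muscle level as a covariate, and 0 in either flow cell alone, with the purity ratios or in 1 fit of all 48 libraries; 0 rose in the first flow cell or with the purity ratios. The genes passing there were 0 in the first and 1253 in the second flow cell, 203 with the purity ratios and 1040 in the 1 fit. Of all genes, 9.07% fell with DESeq2, 15.6% with library size scaling, 2.87% with no filter and 6.95% with the muscle covariate. Without 1 Renca library, 1 to 20 fell and 1 to 2 rose, beside 5.0% to 11.3% of all genes that fell. Of the differences of effects, 12 were lower with DESeq2, 15 with library size scaling, 10 with no filter (1 higher) and 24 without AB1 non-responder 3. In the same order, 22.8%, 26.6%, 13.1% and 19.7% of all genes were lower. Between tumours 9 were lower with non-responders alone and 15 higher with responders alone, where Aurka reversed to -0.021. The cause was not tested. The replicate block left 30 lower and 2 higher in AB1 and 4 lower and 1 higher in Renca; it ended the calls of Ttk in Renca (-0.18) and Cdc20 between the effects (-0.42), and changed no other call. The fits without AB1 non-responder 3 in the last 2 comparisons, without the libraries of high skin level, and with the muscle covariate were chosen after seeing the data. Of the single-gene values, 3215 kept their call, 175 gained a call, 137 lost it and 1 reversed. The values that kept their call include some that changed sign without passing in either fit. Nusap1 in AB1, for example, was at -0.18 in the main fit and at 0.009 in the first flow cell alone. At 3 to 14 counts a library, depth limits Cdkn2a in AB1.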
